A study of Mus musculus with 6 samples.

Results

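The 10 genes described here encode transcription factors and effectors that mark nuclei of the mouse hypothalamus: Sim1, Otp, Nkx2-1, Nkx2-2, Six3, Six6, Nr5a1, Hmx2, Hdc and Baiap3. They were taken from the RNA count table by gene symbol, 1 row per Ensembl ID, and all 10 were found among 22584 genes. Brain tissue of WT mice was extracted with the AllPrep DNA/RNA/Protein Mini Kit in 3 libraries, a column kit that recovers RNA and protein from one lysate, and with TRIzol, a phenol reagent, in 3 control libraries. All 6 libraries share the genotype and were amplified by T7 in vitro transcription before sequencing. The labels name the tissue only as brain, and the sources used here give no strain, sex, age or part of the brain. Nothing in the labels ties the 6 libraries to separate mice, so the spread behind every p-value is that between libraries and may be technical.

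The hypothalamus is built from small nuclei, each made of neurons that carry their own transcription factors and messengers. Sim1 and Otp are needed for the neurons of the paraventricular and supraoptic nuclei, which make oxytocin, vasopressin and releasing hormones. Nkx2-1 patterns the ventral hypothalamus, Six3 and Six6 belong to the anterior forebrain programme, Nr5a1 marks the ventromedial nucleus, and Hmx2 is used with Hmx3 in the developing tuberal hypothalamus. Hdc encodes histidine decarboxylase, the enzyme that makes histamine, whose neurons in the brain lie in the tuberomammillary nucleus. Baiap3, a Munc13-family protein of dense-core vesicle traffic, is abundant in the hypothalamus and is made elsewhere in the brain too.

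The 250 bases upstream of the annotated start are shown for Sim1 and Hdc, the genes that passed the test, and for Otp, which acts with Sim1 in the same nuclei. They come from RefSeq on build GRCm38.p6, where the windows are chr10:50895401-50895650 on the plus strand for Sim1, chr2:126618679-126618928 on the minus strand for Hdc and chr13:94875386-94875635 on the plus strand for Otp. The counts were made on another build, GRCm39, so these coordinates serve the printed windows alone. Each window is written 5′ to 3′ on the gene's strand, with capitals at any match of 5 motifs on either strand.
Sim1: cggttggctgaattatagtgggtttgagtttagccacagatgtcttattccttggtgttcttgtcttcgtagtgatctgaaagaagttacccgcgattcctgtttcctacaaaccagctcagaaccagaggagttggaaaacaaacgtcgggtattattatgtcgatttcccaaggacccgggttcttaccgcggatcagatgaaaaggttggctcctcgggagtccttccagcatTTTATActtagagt
Hdc: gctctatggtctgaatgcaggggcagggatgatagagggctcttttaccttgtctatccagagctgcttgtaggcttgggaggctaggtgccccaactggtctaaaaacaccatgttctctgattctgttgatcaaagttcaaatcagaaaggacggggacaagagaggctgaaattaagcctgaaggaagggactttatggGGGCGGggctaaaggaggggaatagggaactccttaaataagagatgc
Otp: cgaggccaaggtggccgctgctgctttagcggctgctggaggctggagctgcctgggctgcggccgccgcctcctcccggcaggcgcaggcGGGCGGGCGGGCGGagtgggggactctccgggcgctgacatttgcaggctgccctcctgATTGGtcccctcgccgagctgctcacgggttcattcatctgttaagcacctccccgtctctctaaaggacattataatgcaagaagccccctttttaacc
The motifs searched were TATAAA (the TATA box, in 12.4% of 32851 promoter windows of that length), GGGCGG (the GC box, 32.7%), CCAAT (33.8%), ACGTG (the core of sites bound by bHLH-PAS dimers, 16.6%) and TAATTA (a homeodomain core, 4.84%). The Sim1 window held 1 TATAAA, on the minus strand, the Hdc window 1 GGGCGG, and the Otp window 3 overlapping GGGCGG and 1 CCAAT. GC content was 45.6% for Sim1, 48.8% for Hdc and 65.2% for Otp, against a median of 52.4% over all windows. A letter match describes the window and does not show that a factor binds it.

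Of the 10 genes, 7 had enough counts to be tested, and 2 of these rose in AllPrep, Sim1 and Hdc, by edgeR's quasi-likelihood test at a Benjamini-Hochberg adjusted p below 0.05. None fell, 5 tested genes did not pass, and Six6, Nr5a1 and Hmx2 were below the filter on low counts. Over all 16325 genes tested, 2.52% were called higher and 1.28% lower, 3.8% in all. For 5 of the 10 genes (Sim1, Otp, Nkx2-1, Hdc and Baiap3) every AllPrep library lay above every TRIzol library, which held for 13.4% of all tested genes. For the other 5 the groups overlapped, and for none was every AllPrep library below every TRIzol library, as in 20.6% of all tested genes. The median log2 fold change of the 7 tested genes was 1.66, with all 7 above 0, beside a median of -0.01 over all tested genes. The 10 genes were chosen with earlier results of these data known, so these shares and medians do not test them against all genes. In bulk tissue, more cells of a type cannot be told apart from more RNA per cell. Levels are given as CPM, counts scaled to a fixed library total, and fold changes are AllPrep over TRIzol on TMM-normalized counts.

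**Figure D1:**
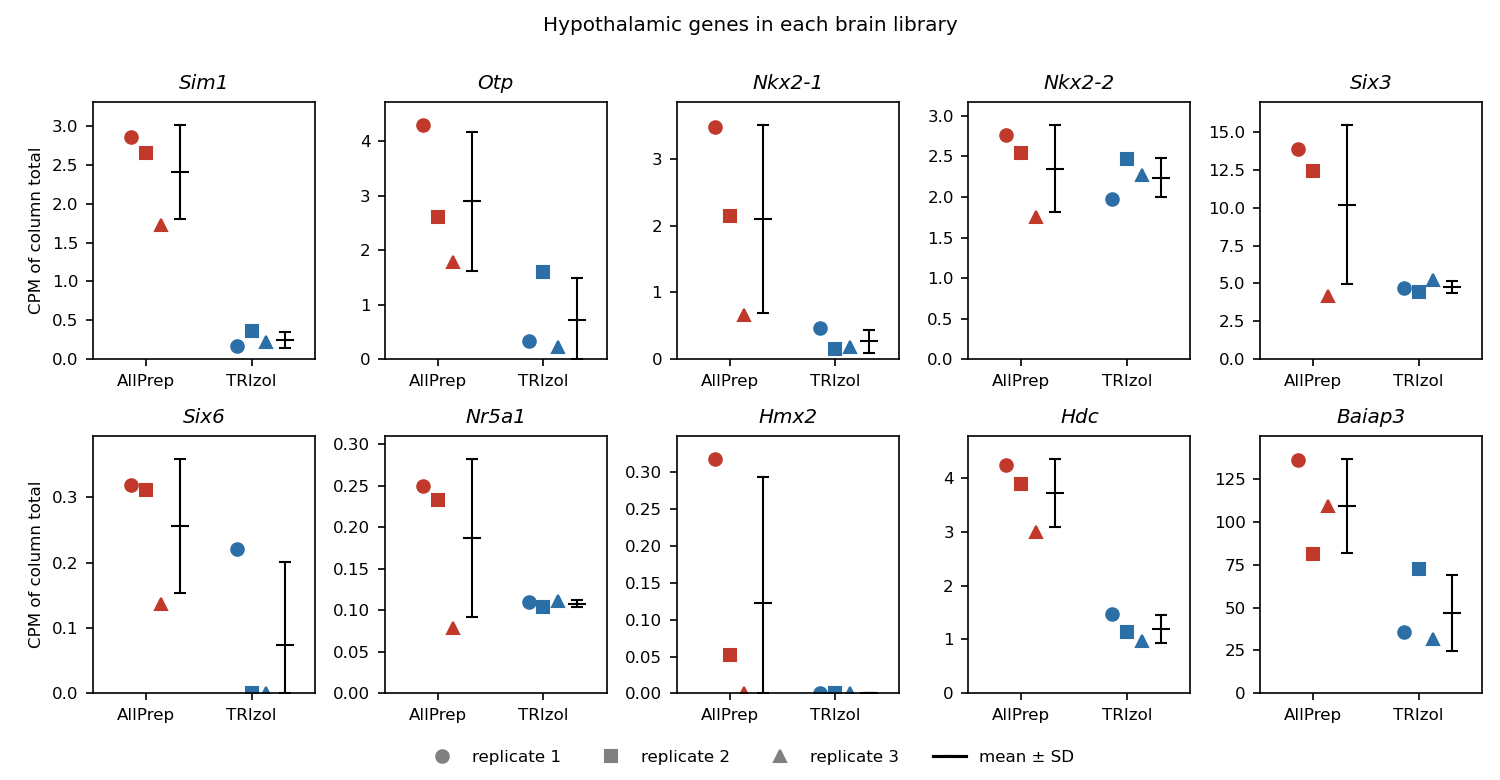
CPM of each of the 10 genes (y axis, from 0, own scale per gene) in the 3 AllPrep and 3 TRIzol libraries, with the mean and SD beside each group; whiskers stop at 0. The groups are apart for Sim1, Otp, Nkx2-1, Hdc and Baiap3, and AllPrep 1 holds the highest value of every gene.

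Sim1 (ENSMUSG00000019913), the bHLH-PAS factor of paraventricular neurons, had 2.86, 2.65 and 1.73 CPM in AllPrep libraries 1 to 3, against 0.165, 0.363 and 0.222 CPM in TRIzol libraries 1 to 3. Every AllPrep library was well above every TRIzol library, and AllPrep 3 was the lowest of its group. The mean was 2.41 ± 0.603 CPM in AllPrep and 0.25 ± 0.102 CPM in TRIzol (SD, n = 3 each), a 9.75-fold higher level in AllPrep (adjusted p = 0.016, with a log2 fold change of 3.29 and an SE of 0.36). The counts behind it were 126, 102 and 88 in AllPrep and 6, 14 and 10 in TRIzol. Without 1 library the log2 fold change stayed between 3.08 and 3.63, but the adjusted p was 0.0679 without AllPrep 1, 0.0542 without AllPrep 2 and 0.0501 without TRIzol 2.

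Otp (ENSMUSG00000021685), a homeobox factor that specifies the same neurons, had 4.3, 2.62 and 1.79 CPM in the AllPrep libraries and 0.33, 1.61 and 0.222 CPM in the TRIzol libraries. The groups did not overlap, but TRIzol 2 lay just under AllPrep 3. Means were 2.9 ± 1.28 CPM in AllPrep and 0.72 ± 0.772 CPM in TRIzol (SD, n = 3 each), and the difference did not pass (log2 fold change 2.05, SE 0.69, 95% interval 0.82 to 3.9 by limma, adjusted p = 0.12). Without TRIzol 2 the log2 fold change was 3.42 (adjusted p = 0.0621).

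Hdc (ENSMUSG00000027360), the histamine-synthesizing enzyme, had 4.23, 3.89 and 3 CPM in the AllPrep libraries, against 1.48, 1.14 and 0.978 CPM in the TRIzol libraries. All 3 AllPrep values were above all 3 TRIzol values, and neither group held a library far from its others. The mean was 3.71 ± 0.633 CPM in AllPrep and 1.2 ± 0.258 CPM in TRIzol (SD, n = 3 each), a 3.16-fold higher level in AllPrep (adjusted p = 0.025, with a log2 fold change of 1.66 and an SE of 0.23). Without 1 library the log2 fold change ran from 1.53 to 1.84, and the adjusted p was 0.0857 without AllPrep 1, 0.0759 without AllPrep 2, 0.0537 without AllPrep 3 and 0.0665 without TRIzol 2.

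Histamine is also made by mast cells, so their markers were read beside Hdc. None of the 6 mast cell genes in the table reached the filter, and no library had more than 6 counts of any of them. Their summed level was 0.0455 to 0.156 CPM in AllPrep and 0.0824 to 0.208 CPM in TRIzol, below Hdc in every library. The mast cell proteases Cma1 and Tpsb2 were at 0 in all 3 AllPrep libraries, Mcpt4 had 2, 0 and 4 counts in AllPrep and 0, 6 and 2 in TRIzol, and Cpa3, Fcer1a and Ms4a2 had at most 4 counts in any library.

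Hmx2 (ENSMUSG00000050100), a homeobox factor of the tuberal hypothalamus, had 14, 2 and 0 counts in the AllPrep libraries and 0 in each TRIzol library. Most of its counts were in AllPrep 1, so the value rests on that library, and a library with 0 counts allows up to 3 counts, or 0.0589 to 0.0824 CPM (counting error only). An exact permutation test, two-sided, gave p = 0.4 for 3 against 3 libraries, where the smallest possible p is 0.1. Its partner Hmx3, also under the filter, had 0.205, 0.259 and 0.0393 CPM in AllPrep and 0, 0.0519 and 0 CPM in TRIzol.

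Nkx2-1 (ENSMUSG00000001496), which specifies the ventral hypothalamus and also the medial ganglionic eminence of the embryonic basal forebrain, had 3.48, 2.15 and 0.667 CPM in the AllPrep libraries, against 0.467, 0.156 and 0.178 CPM in the TRIzol libraries. The groups did not overlap, yet AllPrep 3 stood nearer to TRIzol 1 than to AllPrep 2. Means were 2.1 ± 1.41 CPM in AllPrep and 0.267 ± 0.174 CPM in TRIzol (SD, n = 3 each), and the 8.04-fold difference did not pass (log2 fold change 3.01, SE 0.68, 95% interval 1.2 to 4.11 by limma, adjusted p = 0.055). In the 6 fits that each left out 1 library it did not pass either, with adjusted p from 0.0546 to 0.138.

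Six3 (ENSMUSG00000038805), a forebrain homeobox gene that striatal neurons also use, had 13.9, 12.4 and 4.16 CPM in the AllPrep libraries and 4.67, 4.41 and 5.22 CPM in the TRIzol libraries. AllPrep 1 and AllPrep 2 were far above the other 4 libraries, and AllPrep 3 was below every TRIzol library, so the groups overlapped. The mean was 10.2 ± 5.25 CPM in AllPrep and 4.77 ± 0.414 CPM in TRIzol (SD, n = 3 each; log2 fold change 1.12, SE 0.39, 95% interval -0.02 to 1.9 by limma, adjusted p = 0.13). Without AllPrep 3 it passed, at a log2 fold change of 1.49 (adjusted p = 0.0239).

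Six6 (ENSMUSG00000021099), the closest relative of Six3 and a factor of the suprachiasmatic nucleus and pituitary, had 14, 12 and 7 counts in the AllPrep libraries and 8, 0 and 0 counts in the TRIzol libraries. TRIzol 1 lay inside the AllPrep range, and the exact permutation test gave p = 0.2 (two-sided). Nkx2-2 (ENSMUSG00000027434), a ventral patterning factor that oligodendrocyte-lineage cells also express, had 2.77, 2.54 and 1.75 CPM in the AllPrep libraries and 1.98, 2.47 and 2.27 CPM in the TRIzol libraries. The groups overlapped throughout, at means of 2.35 ± 0.538 CPM in AllPrep and 2.24 ± 0.245 CPM in TRIzol (SD, n = 3 each; log2 fold change 0.10, SE 0.22, 95% interval -0.42 to 0.59 by limma, adjusted p = 0.8). The interval leaves out differences of the size seen for Sim1 or Hdc. None of the 9 oligodendrocyte-lineage genes passed either (median log2 fold change -0.13), at summed levels of 304 to 326 CPM in AllPrep and 289 to 305 CPM in TRIzol. That median covers genes on either side of 0. Pdgfra (0.49, adjusted p = 0.052), Gpr17 (0.47, adjusted p = 0.065) and Cspg4 (0.32, adjusted p = 0.11) were above TRIzol in every AllPrep library. The other 6 had log2 fold changes below 0, among them Olig1 at -0.20 (adjusted p = 0.33).

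Nr5a1 (ENSMUSG00000026751), the nuclear receptor of the ventromedial nucleus, had 11, 9 and 4 counts in the AllPrep libraries, against 4, 4 and 5 counts in the TRIzol libraries. AllPrep 1 and AllPrep 2 were above the other 4 libraries and AllPrep 3 was among the TRIzol values, at means of 0.187 ± 0.0946 CPM in AllPrep and 0.108 ± 0.00392 CPM in TRIzol (SD, n = 3 each; exact permutation p = 0.4, two-sided). For Nr5a1, Six6 and Hmx2 the exact test could not have gone below 0.1, so its p-values do not show whether they differed.

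Baiap3 (ENSMUSG00000047507), by far the most abundant of the 10, had 136, 81 and 109 CPM in the AllPrep libraries and 35.7, 72.2 and 31.9 CPM in the TRIzol libraries. The groups did not overlap, but TRIzol 2 came close to AllPrep 2. Means were 109 ± 27.3 CPM in AllPrep and 46.6 ± 22.2 CPM in TRIzol (SD, n = 3 each), a 2.38-fold difference that did not pass (log2 fold change 1.25, SE 0.32, 95% interval 0.6 to 2.04 by limma, adjusted p = 0.066). Without TRIzol 2 the log2 fold change was 1.71 (adjusted p = 0.0575). TRIzol 2 was the highest TRIzol library for Otp and Baiap3, and for Sim1 and Nkx2-2 too. It also stood apart in Ddc and Slc18a2, the decarboxylase and vesicular transporter of monoamine neurons. Ddc had 23.2, 9.16 and 7.7 CPM in AllPrep and 8.79, 72.7 and 7.27 CPM in TRIzol, and Slc18a2 27, 10.6 and 6.75 CPM in AllPrep and 9.09, 70.2 and 9.78 CPM in TRIzol. The part of Ddc and Slc18a2 in the values of Otp, Baiap3, Sim1 and Nkx2-2 was not tested.

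**Figure D2:**
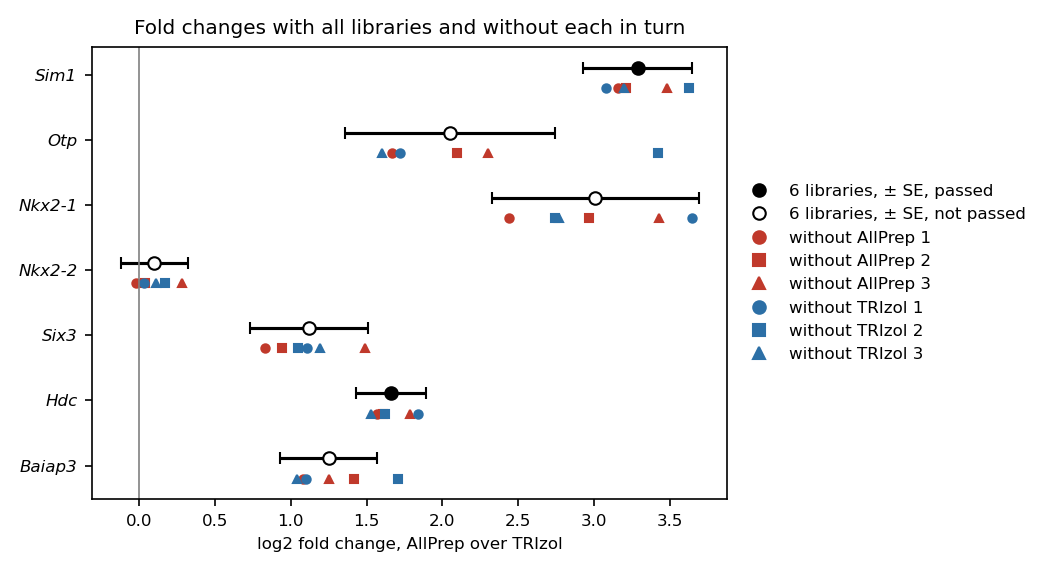
Log2 fold change of the 7 tested genes, AllPrep over TRIzol (x axis), with SE from all 6 libraries (upper point of each gene; filled where it passed) and without each library in turn (lower points). All values for 6 genes lie right of 0, and those of Nkx2-2 lie about 0.

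Across libraries the genes had a pattern that did not follow the method alone. AllPrep 1 was the highest of the 6 libraries for all 10 genes, as it was for 14.4% of all tested genes. AllPrep 3 was the lowest AllPrep library for 9 of the 10, with Baiap3 the exception, against 39.5% of all tested genes. Centred on each gene's mean, the median profile of the 7 tested genes was 1.08, 0.95 and 0.54 log2 CPM in AllPrep and -0.49, -0.59 and -1.11 log2 CPM in TRIzol. Outside the list, the genes with a mean of at least 1 CPM nearest to that profile over the 6 libraries were Frmpd2 (root mean square difference 0.244 log2 CPM), Ubxn10 (0.263), Cspg4b (0.272), Sytl5 (0.282) and Tacr1, the substance P receptor (0.283).

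Per kilobase of the longest annotated transcript, the order of levels in AllPrep was Baiap3 (23.4 CPM per kb), Six3 (2.76), Nkx2-2 (1.11), Otp (1.09), Hdc (0.821), Nkx2-1 (0.748), Sim1 (0.328), Six6 (0.0638), Nr5a1 (0.0626) and Hmx2 (0.0398). In that group Baiap3 stood clear of Six3 and Sim1 clear of Six6, whereas every other pair of neighbours overlapped between libraries. The TRIzol order was Baiap3 (10 CPM per kb), Six3 (1.3), Nkx2-2 (1.06), Otp (0.271), Hdc (0.266), Nkx2-1 (0.095), Nr5a1 (0.0362), Sim1 (0.034), Six6 (0.0183) and Hmx2 (0). There the neighbours from Nr5a1 down overlapped, as did Otp and Hdc, while the rest did not. Sim1 thus stood above Six6 and Nr5a1 in AllPrep and overlapped both in TRIzol.

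Other genes, listed by nucleus, were then read. A listed gene need not be made in its nucleus alone, and values from bulk brain cannot place it there. Of 6 tested genes of the paraventricular and supraoptic nuclei, the home of Sim1 and Otp neurons, 2 rose, none fell and 4 did not pass. Their median log2 fold change was 1.27 (0.85 without AllPrep 1), midway between unlike genes. Oxt, the oxytocin gene, had 13.1, 3.79 and 3.93 CPM in AllPrep and 0.934, 0.104 and 0.845 CPM in TRIzol (log2 fold change 3.48, adjusted p = 0.048). Trh, thyrotropin-releasing hormone, had 14.6, 4.67 and 11.3 CPM in AllPrep and 1.21, 2.23 and 2.02 CPM in TRIzol (log2 fold change 2.51, adjusted p = 0.033). Neither gene's groups overlapped, and both were highest in AllPrep 1, as Sim1 and Otp were.

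Both peptide calls were lost more often than kept when 1 library was left out. Oxt passed in 0 of these 6 fits, at adjusted p from 0.0726 to 0.121, and did not pass with length and GC trends removed (0.0541). Trh passed in 1, at 0.0215 without AllPrep 2, with up to 0.0924 in the others, and did not pass with replicate number as a block (0.0626). Avp, vasopressin, had 11, 4.12 and 2.12 CPM in AllPrep and 1.81, 0.519 and 0.978 CPM in TRIzol, without overlap, and did not pass (log2 fold change 2.40, adjusted p = 0.077). The other 3 tested genes had log2 fold changes near 0. Crh, corticotropin-releasing hormone, which cortical interneurons also make, averaged 4.09 ± 0.79 CPM in AllPrep and 3.83 ± 0.696 CPM in TRIzol (SD, n = 3 each), and Arnt2, the dimer partner of Sim1, 389 ± 10.4 CPM in AllPrep and 366 ± 31.3 CPM in TRIzol. Their log2 fold changes were 0.13 and 0.12, and that of Pou3f2, a POU factor acting downstream of Sim1 and Otp, was -0.02.

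Of the 4 ventromedial genes read beside Nr5a1, 1 rose. Fezf1, a zinc finger factor of that nucleus, had 1.25, 0.648 and 1.02 CPM in AllPrep and 0.247, 0.0519 and 0.0444 CPM in TRIzol (log2 fold change 3.14, adjusted p = 0.039). It passed in 1 of 6 fits without a library (adjusted p 0.0388 to 0.118) and not with replicate number as a block (0.0539). Esr1, an oestrogen receptor, was at a log2 fold change of 1.76 (adjusted p = 0.051), Adcyap1 at -0.24 (adjusted p = 0.57) and Sox14 at -1.81 (adjusted p = 0.17). Sox14 had 0.477, 0.571 and 0.216 CPM in AllPrep and 0.44, 3.17 and 0.911 CPM in TRIzol, highest in TRIzol 2.

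For the tuberomammillary nucleus, where Hdc neurons lie, none of the 5 other tested genes passed, at a median log2 fold change of 0.00. Hrh3, the histamine autoreceptor, had a log2 fold change of 0.08 (adjusted p = 0.69), Maob, which breaks down a histamine metabolite, 0.00 (adjusted p = 1), Hcrtr2, an orexin receptor, 0.21 (adjusted p = 0.64) and Prph, peripherin, -0.69 (adjusted p = 0.2). Slc18a2, the vesicular transporter given above, was at -0.98 (adjusted p = 0.51), with 70.2 CPM in TRIzol 2. All of these are made by other brain cells as well. In the wider histamine pathway 1 of 8 tested genes rose: Slc29a4, a plasma membrane monoamine transporter that choroid plexus also makes, had 19.5, 16 and 23.7 CPM in AllPrep and 6.51, 9.94 and 10.2 CPM in TRIzol (log2 fold change 1.19, adjusted p = 0.033), and passed in 0 of 6 fits without a library (adjusted p 0.0538 to 0.0965). The receptors Hrh1 and Hrh2 had log2 fold changes of 0.06 and -0.13, and the histamine methyltransferase Hnmt -0.25 (adjusted p = 0.28). Aoc1, a diamine oxidase that degrades histamine, was under the filter on low counts, with 8, 4 and 8 counts in AllPrep and 2, 0 and 0 counts in TRIzol, which did not overlap. The median of the pathway was 0.03, and its difference from Hdc was not tested.

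Among other hypothalamic lists no tested gene passed. The suprachiasmatic nucleus had 6 tested genes, 3 above and 3 below 0, with Avp of the paraventricular list counted again. Their median log2 fold change was 0.69, with 0.44 without AllPrep 3 and 1.28 without TRIzol 3. The 6 genes of the arcuate nucleus had a median of 1.15, with 0.83 without AllPrep 1 and 1.55 without TRIzol 1. For 2 genes of the lateral area it was 2.09, midway between unlike genes. For 3 of the mammillary region it was -0.34, from -0.84 without AllPrep 1 to 2.45 without TRIzol 2. Several genes of these lists lay near the threshold. Among them was Pmch, melanin-concentrating hormone, with 2.36, 23.8 and 5.1 CPM in AllPrep and 0.385, 0.986 and 0.378 CPM in TRIzol (log2 fold change 4.20, adjusted p = 0.053). Unlike the 10 genes, Pmch was highest in AllPrep 2. Lhx9, the other tested gene of the lateral area, averaged 10.1 ± 2.87 CPM in AllPrep and 10.5 ± 5.1 CPM in TRIzol (SD, n = 3 each; log2 fold change -0.02), with overlap. Tac2, neurokinin B, was at 1.53 (adjusted p = 0.053), Syt10 of the suprachiasmatic nucleus at 1.54 (adjusted p = 0.051) and Bsx, a factor of the arcuate nucleus, at 2.49 (adjusted p = 0.085). The other arcuate genes Pomc, Tbx3, Agrp and Isl1 had log2 fold changes of -0.14, 0.15, 0.87 and 1.43. The other suprachiasmatic genes Vip, Lhx1, Vipr2, Prok2 and Avp were at -0.16, -1.32, -1.29, 2.19 and 2.4. Vipr2 had 2.75, 3.92 and 1.96 CPM in AllPrep and 0.797, 2.36 and 18.2 CPM in TRIzol, so its value rests on TRIzol 3. Lhx1 had 1, 0.623 and 0.334 CPM in AllPrep and 1.13, 3.04 and 0.845 CPM in TRIzol, highest in TRIzol 2. The mammillary genes Foxb1, Lmx1a and Lmx1b, at -0.36, 0.59 and -0.34, all overlapped between the methods. Of the 4 tested genes of tanycytes, the glia that line the hypothalamic ventricle, none passed, Gpr50 having the lowest adjusted p (log2 fold change 2.69, adjusted p = 0.055), and Dio2, Lhx2 and Col23a1 were at 0.23, 0.17 and 0.45.

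**Figure D3:**
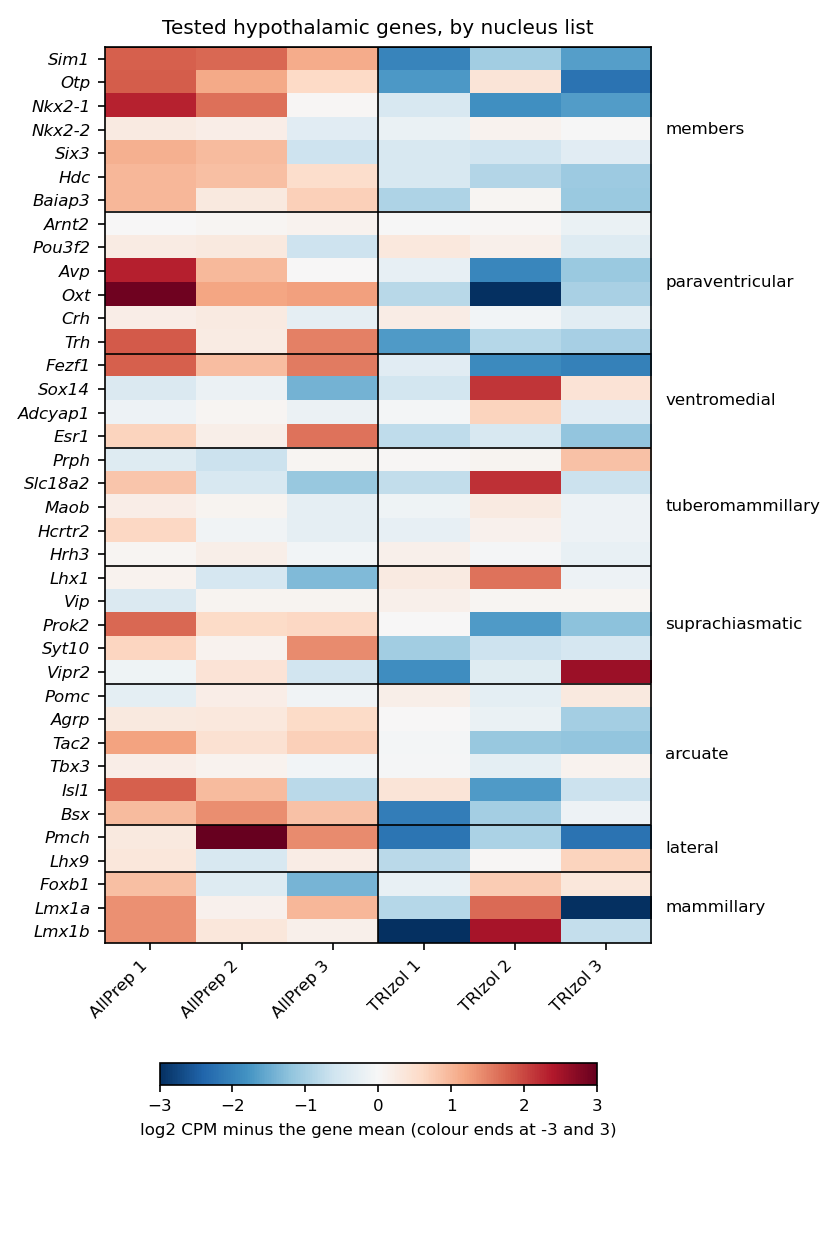
Log2 CPM minus the gene's mean (colour, ending at -3 and 3) of 38 tested hypothalamic genes in each library, with the 7 tested genes of the set on top and the other genes by nucleus list. Red in the AllPrep columns and blue in the TRIzol columns is seen for Sim1, Oxt, Trh and Fezf1, while Arnt2, Crh, Hrh3 and Maob are pale.

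Relatives of the 10 genes gave no call. None of the 6 tested paralogs and family relatives passed (median log2 fold change -0.05): Six2, Six4 and Six5, of the same homeobox family as Six3, were at 0.35, -0.29 and 0.19, Nkx2-9 at -0.84, Ddc, which resembles Hdc in sequence, at -1.12, and Unc13d, the family member closest to Baiap3, at 0.40. None of the 6 Munc13 and CAPS genes, which prime vesicles for release, passed either, at log2 fold changes from -0.10 for Unc13b to 0.42 for Cadps2.

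Some of the 10 genes overlap a neighbour on the other strand, and whether counting used strand is not given in the sources used here, so such pairs are uncertain. Six3os1, antisense to Six3, had 10.5, 7.19 and 4.46 CPM in AllPrep and 3.19, 2.02 and 2.64 CPM in TRIzol and rose (log2 fold change 1.52, adjusted p = 0.047). Yet Six3os1 passed in 0 of 6 fits without a library (adjusted p 0.0545 to 0.122). It did not pass with length and GC trends removed (0.073) or with replicate number as a block (0.0563). Unlike Six3, its groups did not overlap. Nkx2-2os did not pass (log2 fold change -0.34, adjusted p = 0.34). The gene 4930447C04Rik, whose range overlaps Six6, fell (9.91, 9 and 5.2 CPM in AllPrep, 22.6, 21.1 and 15.9 CPM in TRIzol; log2 fold change -1.28, adjusted p = 0.039, and 0 of 6 fits without a library), the opposite direction to the few Six6 counts. Tsr3, which overlaps Baiap3, was at -0.41 (adjusted p = 0.053).

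Markers of neighbouring tissue moved with some of these values, and their part in them was not tested. Of 9 choroid plexus genes 8 rose, with summed levels of 620 to 1252 CPM in AllPrep and 20.3 to 36.9 CPM in TRIzol. Of 7 ependymal genes 4 rose, with 27.2 to 39.4 CPM in AllPrep and 8.45 to 18.5 CPM in TRIzol. Of the choroid plexus genes called, Ttr passed in all 6 fits without a library, Tmem72 in 5 and Kl in 2. The others called passed in 0 to 4 of these fits, and the 4 ependymal genes called in 1 each. The choroid plexus sum was highest in AllPrep 3, the library lowest of the AllPrep group for 9 of the 10 genes. Of 6 basal forebrain and pallidal genes, a region where Nkx2-1 is used too, Gbx1 alone rose (log2 fold change 4.44, adjusted p = 0.046). Gbx1 passed in 0 of 6 fits without a library (adjusted p 0.0535 to 0.117) and was lost with length and GC trends removed (0.0551). The sum of these genes was 98.8, 59.5 and 28.2 CPM in AllPrep, against 31.6, 28 and 16.9 CPM in TRIzol. Its order of libraries within AllPrep was that of Nkx2-1, an order shared by 9 of the 10 genes, all but Baiap3. The 8 striatal genes, none of which passed, summed to 753, 841 and 273 CPM in AllPrep and 575, 269 and 107 CPM in TRIzol. Their lowest AllPrep value was in AllPrep 3, as for Six3 and most of the 10 genes. In TRIzol the striatal sum ran over a wide range while Six3 stayed between 4.41 and 5.22 CPM. The sum of general neuron markers also stood apart between the methods, in the other direction. The 6 genes, none of which passed, summed to 4671 to 5444 CPM in AllPrep and 5695 to 6277 CPM in TRIzol. Snap25, the largest part of these sums, had 2372, 2696 and 2123 CPM in AllPrep and 3564, 3205 and 2866 CPM in TRIzol. Snap25 (log2 fold change -0.39, adjusted p = 0.11) and Tubb3 (-0.28, adjusted p = 0.094) were lower in every AllPrep library. The other 4 genes overlapped, with Slc32a1 (0.44, adjusted p = 0.16) and Rbfox3 (0.12, adjusted p = 0.51) above 0 and the rest below.

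Of the pituitary genes Tshb, a thyrotropin subunit, was the most abundant, at 1.28 to 1.89 CPM in AllPrep and 1.24 to 1.66 CPM in TRIzol, Gh had at most 0.51 CPM in AllPrep and 0.622 CPM in TRIzol, and the sums of the list overlapped (1.79 to 2.61 CPM in AllPrep, 1.57 to 2.57 CPM in TRIzol). Thalamic genes, of the region above the hypothalamus, did not pass, but TRIzol 3 stood apart at 571 CPM beside 55.5 to 194 CPM in AllPrep and 62 to 77.8 CPM in the other TRIzol libraries. Gabra6 of cerebellar granule neurons had at most 0.0519 CPM in AllPrep and 0.0444 CPM in TRIzol, so these brain samples held next to no RNA of that marker. Other genes of the cerebellar list were higher: Cbln1 had 15.5, 13.8 and 8.07 CPM in AllPrep and 7.78, 12.3 and 16.6 CPM in TRIzol. None of the 3 tested genes of that list passed.

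**Figure D4:**
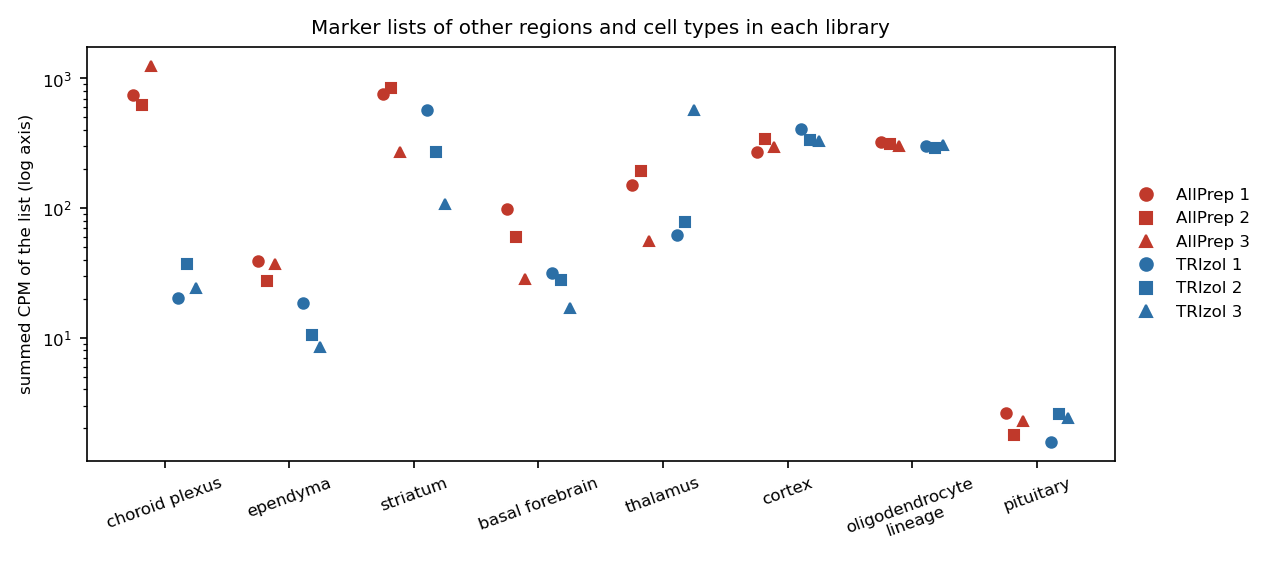
Summed CPM of marker lists of other regions and cell types (log axis) in each AllPrep and TRIzol library. Choroid plexus and ependyma are apart between the methods, whereas the sums of striatum, basal forebrain, thalamus, cortex, oligodendrocyte lineage and pituitary overlap.

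The calls rest on few libraries. Of 621 genes called, 412 were higher and 209 lower (66.3% higher), a split that was 343 and 305 (52.9% higher) with library size alone and 150 and 251 (37.4% higher) with length and GC trends removed; Sim1 and Hdc were called in all 3 fits.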

How the data were processed

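The 6 RNA libraries of WT mouse brain, 3 AllPrep and 3 TRIzol, were grouped by title, with table columns tied to samples through their names. The values the authors deposited are raw counts, whole and unscaled. The submitters' processing notes list FastQC 0.11.9, cutadapt, STAR 2.7.9a, featureCounts, limma 3.60.6 and genome build GRCm39; how strand and multiply mapping reads were handled is not given in the sources used here. Of 22692 rows, 108 repeated an Ensembl ID with the same counts and were removed. Totals ran from 36395330 to 50937858 counts. Even values made up 64.2% to 71.0% of counts between 1 and 20, so halved counts were also tried in case each read of a pair had been counted. Replicates differed by more than sampling noise (lowest chi-square over its degrees of freedom 14.3).

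The test was edgeR's quasi-likelihood F-test (version 4.0.16, R 4.3.3) after filterByExpr by group and TMM scaling (two-sided, Benjamini-Hochberg over 16325 genes, adjusted p below 0.05; SE is the log2 fold change over the square root of F). The 95% intervals came from limma 3.58.1 (trend, prior count 2). Of the genes under the filter, only Six6, Nr5a1 and Hmx2 got an exact permutation test. The 10 genes and 23 further gene lists were chosen with earlier results of these data known; genes were named from the 10, from lists of at most 8 genes (some given by counts and sums alone), from the 2 genes of smallest p and 2 of highest CPM in longer lists, from overlapping genes and from the 5 nearest profiles. Gh, Hrh1, Hrh2, Aoc1, Six2, Six5, Unc13d and Cspg4 were named after their values were seen. Of 159 list entries, 152 were in the table, and 1 further gene is not reported here. Lengths and overlaps are from GENCODE vM21 (GRCm38), promoters from RefSeq GRCm38.p6, where 9 of the 10 genes were matched. The alternatives tried were library size alone, DESeq2 size factors, the DESeq2 1.42.0 Wald test, limma-voom, limma-trend, 2 other filters, halved counts, a replicate block, each library left out, and, added after the data were seen, length and GC trends removed (mgcv 1.9.3).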

Additional observations from a re-analysis of the deposited data

How the results depend on the processing

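Sim1 and Hdc kept their direction under all 16 alternatives and passed in 13 and 12 of them; the losses were in fits that left out 1 library, where 0 to 2 of the 10 genes passed. In those fits the count of all genes higher in AllPrep ran from 2 to 137 and of genes lower from 0 to 68. The DESeq2 Wald test called 1275 genes higher and 826 lower, and 6 of the 10 genes (Sim1, Otp, Nkx2-1, Six3, Hdc and Baiap3). With no filter 4 of the 10 passed, Nkx2-1 (adjusted p = 0.0334) and Baiap3 (adjusted p = 0.0444) being added. Removing length and GC trends left 150 genes higher. Nkx2-2 had log2 fold changes from -0.02 (without AllPrep 1) to 0.28 (without AllPrep 3) when 1 library was left out. The cause of these shifts was not tested.

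The deviations of same-numbered libraries of the methods had correlations of -0.05, 0.01 and 0.16. Those of differently numbered libraries ran from -0.17 to 0.2, a range that holds the same-numbered values. The check therefore cannot tell whether the numbers pair libraries, and no label says what they mark. With a replicate block 195 genes were higher and 41 lower, and 3 of the 10 genes passed, Nkx2-1 (adjusted p = 0.0431) beside Sim1 and Hdc. Six6, Nr5a1 and Hmx2 had 14 counts or fewer in every library, and the exact test used for them cannot go below p = 0.1.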

Other observations

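Hcrt, the orexin precursor, under the filter on low counts, had 0.182, 1.69 and 0.726 CPM in AllPrep and 0, 0.0519 and 0 CPM in TRIzol, highest in AllPrep 2. Npvf, also under the filter, had 0.0455, 0.208 and 0.314 CPM in AllPrep and 0, 0.0519 and 0.0889 CPM in TRIzol, highest in AllPrep 3.

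In the basal forebrain list, Lhx8, a factor of cholinergic neurons, had 9.35, 3.01 and 0.51 CPM in AllPrep and 0.55, 0.104 and 0.0222 CPM in TRIzol (log2 fold change 4.32, adjusted p = 0.079 in edgeR). Chat, which makes acetylcholine, had 11.5, 8.27 and 0.589 CPM in AllPrep and 2.23, 2.36 and 0.311 CPM in TRIzol (adjusted p = 0.23). Both were lowest in replicate 3 of each method.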
